A study of Mus musculus with 9 samples.

Results

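The sites compared here were those of the E protein E2A in early thymocyte progenitors, called DN3 cells, and those of the E protein HEB in progenitors that had received a gamma-delta T cell receptor and had reached the CD73+ stage. The DN3 E2A list held 12357 peaks on chromosomes 1 to 19, X and Y, and the CD73+ HEB list held 10194. A DN3 E2A peak was called met where a CD73+ HEB peak overlapped it by at least 1 bp. By this rule 3452 DN3 E2A peaks were met, which was 27.9% (27.2 to 28.7%, 95% Wilson interval), and 8905 were not met. On the CD73+ side, 3993 HEB peaks lay on a DN3 E2A peak and 6201, or 60.8% (59.9 to 61.8%), lay off all of them. Both lists together made up 22551 of the 79216 peaks in the 6 lists of the series.

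All cells came from Rag2-/- BALB/c mice, so none could assemble a receptor of its own. Fetal liver progenitors were grown on OP9-DL1, a stromal line that presents the Notch ligand DL1, until they were DN3 cells, and DN3 cells of culture day 7 were transduced with the KN6 gamma-delta receptor on a vector marked by YFP. After 3 more days on OP9-DL1, the transduced cells were sorted into a CD24+ CD73- fraction, still able to take the alpha-beta fate, and a CD24+ CD73+ fraction, committed to the gamma-delta fate. Chromatin was precipitated with rabbit sera against the C-terminal end of E2A or of HEB and compared with an input of the same cells, 9 libraries in all. The authors joined duplicate samples into 1 file ahead of peak calling. Each group is therefore 1 list with no replicate error, and no difference below has a test. The intervals cover counting error only.

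The lists limit the comparison in 3 ways. The antibody and the cell stage both differ between the DN3 E2A and the CD73+ HEB list, and their parts cannot be told apart. No cells transduced without a receptor were among the samples, so the receptor, the transduction, the added culture time and the sort cannot be told apart either. Among the CD73+ lists, the one labelled E2A met 9.27% (8.77 to 9.79%) of the DN3 E2A peaks, against 27.9% for the one labelled HEB. Whether the labels or the quality of these CD73+ libraries account for this could not be settled from the lists. The labels were used as given, so every statement on CD73+ HEB holds for the list labelled so.

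E2A, encoded by Tcf3, and HEB, encoded by Tcf12, are helix-loop-helix proteins that bind DNA as dimers at the E-box, CANNTG. In DN3 thymocytes they act on the genes of antigen receptor assembly, of the pre-T cell receptor and of Notch signalling. Signals from a T cell receptor raise Id proteins, foremost Id3, which pair with E proteins and keep them from DNA, and a strong signal of this kind favours the gamma-delta fate.

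Promoters from each set show the DNA under these peaks. The 250 bases before the start site are printed 5′ to 3′ in the sense of the gene from RefSeq (GRCm38.p6, which is mm10), all from the minus strand, with each E-box in capitals. Rag1 (chr2:101649533-101649782) and Sla2 (chr2:156887222-156887471) had a met peak, Ptcra (chr17:46763713-46763962) and Sit1 (chr4:43483710-43483959) one that was not met, and Gfi1 (chr5:107725806-107726055) and the histone gene H4c18 (chr13:21832198-21832447) a CD73+ HEB peak off DN3 E2A sites.
Rag1: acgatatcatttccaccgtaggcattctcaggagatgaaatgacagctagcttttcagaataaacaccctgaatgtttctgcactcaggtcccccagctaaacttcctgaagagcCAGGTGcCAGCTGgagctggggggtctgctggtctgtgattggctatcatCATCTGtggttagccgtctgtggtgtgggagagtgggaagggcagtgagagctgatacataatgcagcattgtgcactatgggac
Sla2: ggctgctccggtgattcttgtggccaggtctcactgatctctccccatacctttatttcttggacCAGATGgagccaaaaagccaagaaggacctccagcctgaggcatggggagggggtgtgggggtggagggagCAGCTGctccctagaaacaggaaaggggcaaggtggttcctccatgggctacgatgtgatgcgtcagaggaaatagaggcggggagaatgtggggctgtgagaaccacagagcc
Ptcra: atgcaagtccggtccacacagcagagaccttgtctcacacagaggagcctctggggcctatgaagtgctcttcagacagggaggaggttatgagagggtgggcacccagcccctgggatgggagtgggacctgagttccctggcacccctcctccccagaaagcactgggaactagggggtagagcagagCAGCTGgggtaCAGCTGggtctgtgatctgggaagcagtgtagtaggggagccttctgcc
Sit1: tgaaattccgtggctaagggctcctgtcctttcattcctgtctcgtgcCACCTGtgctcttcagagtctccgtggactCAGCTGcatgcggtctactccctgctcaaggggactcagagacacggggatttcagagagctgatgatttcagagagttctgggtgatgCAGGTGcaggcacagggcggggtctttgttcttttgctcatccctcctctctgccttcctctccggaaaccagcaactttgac
Gfi1: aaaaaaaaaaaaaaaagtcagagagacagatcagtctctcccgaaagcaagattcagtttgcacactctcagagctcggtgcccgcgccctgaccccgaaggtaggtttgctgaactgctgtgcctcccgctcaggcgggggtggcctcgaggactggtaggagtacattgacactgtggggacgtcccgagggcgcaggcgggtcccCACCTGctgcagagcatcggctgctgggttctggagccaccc
H4c18: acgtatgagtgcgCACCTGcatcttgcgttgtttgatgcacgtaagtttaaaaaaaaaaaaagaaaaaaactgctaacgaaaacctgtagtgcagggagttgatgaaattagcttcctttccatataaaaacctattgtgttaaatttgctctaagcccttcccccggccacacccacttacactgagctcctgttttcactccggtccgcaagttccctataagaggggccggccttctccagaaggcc
All 3 sets held promoters with E-boxes. Rag1, a subunit of the recombinase that cuts receptor genes, had 3 of them here: CAGGTG and CAGCTG next to each other, and CATCTG further on. Its peak scored 86.85 for DN3 E2A and 104.21 for CD73+ HEB. Sla2, an adaptor that dampens receptor signalling, had 2 E-boxes and scored 1263.8 and 916.34. Ptcra, the alpha chain of the pre-T cell receptor, had 2 copies of CAGCTG, with a DN3 E2A score of 76.91 and no CD73+ HEB peak. Sit1, another negative regulator of receptor signalling, had 3 E-boxes, a DN3 E2A score of 205.26 and no CD73+ HEB peak. Gfi1, a repressor of T cell progenitors, had 1 E-box and a CD73+ HEB score of 295.75. H4c18 also had 1 E-box, with a CD73+ HEB score of 244.05. The score is that of the peak caller MACS, 10 times the negative log10 of the peak's p-value, at least 50 in both lists. It ranks peaks within a list and is not a level that can be compared between lists.

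Over the 250 bases before the start, 62.8% of 21238 promoters held CANNTG and 12.1% held CAGCTG. In windows of 300 bases that add the first 50 bases of the gene, CAGCTG was in 33.3% (27.2 to 40.1%) of 201 promoters with a met peak, 28.8% (23.9 to 34.2%) of 295 with a peak that was not met and 21.5% (16.7 to 27.3%) of 228 with a CD73+ HEB peak and no DN3 E2A peak, against 15.6% of all. CAGGTG, searched with its reverse complement CACCTG, was in 39.3%, 36.3% and 28.5%, against 19.7% of all. Both motifs are also matches to CANNTG, which was in 81.1%, 82.4% and 72.4%, against 69.0%. The intervals of the met and not-met promoters overlapped for both motifs. The 3 sets were also richer in G and C, with medians of 61.3%, 61.0% and 63.7% against 56.3% for all promoters, and its part in the motif shares was not tested.

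The strongest DN3 E2A sites were those with CD73+ HEB peaks. The share met was 7.39% of DN3 E2A peaks that scored 50 to 60, 35.3% of those at 100 to 200 and 93.1% (269 of 289) of those at 1000 or more. From the other side, 16.3% of CD73+ HEB peaks at 50 to 60 lay on a DN3 E2A peak, and 77.4% of those at 100 to 200. All 189 CD73+ HEB peaks at 500 to 1000 and all 101 at 1000 or more lay on one. No CD73+ HEB peak off DN3 E2A sites scored above 492.5. The median score was 186.1 for met DN3 E2A peaks and 69.98 for those not met, 106.5 for CD73+ HEB peaks on DN3 E2A sites and 57.7 for those off them.

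**Figure D1:**
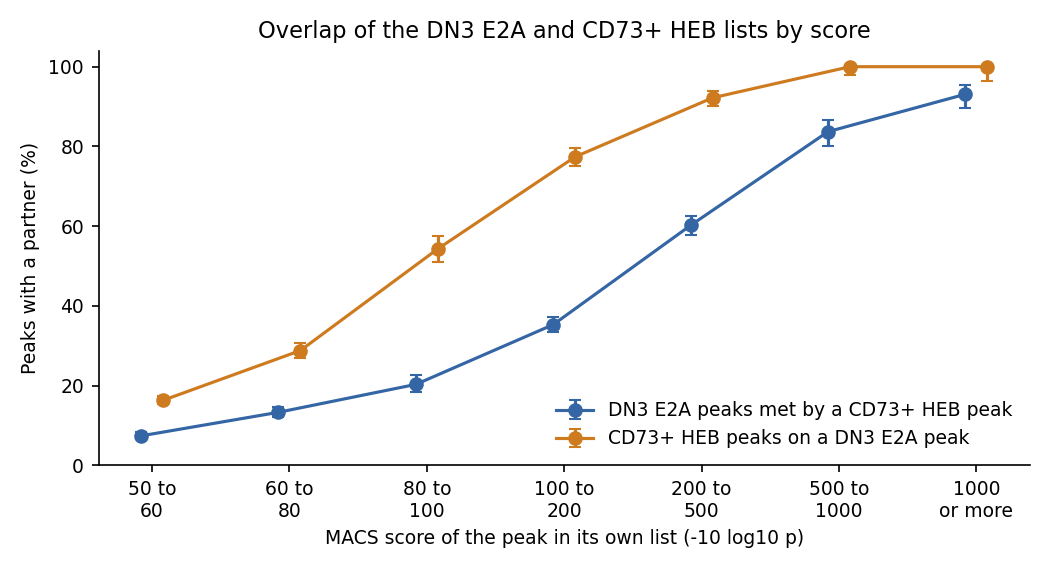
Share of peaks with a partner in the other list (percent, vertical) by MACS score of the peak in its own list (horizontal), for DN3 E2A peaks and CD73+ HEB peaks, with 95% Wilson intervals as bars. Both shares climbed with every step of the score but the last for HEB, from 7.39% to 93.1% for DN3 E2A and from 16.3% to 100% for CD73+ HEB.

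Most meetings were of 1 peak with 1 peak at nearly the same place. Of the met DN3 E2A peaks, 3066 had 1 CD73+ HEB peak and 386 had 2 or more. The CD73+ HEB peak lay wholly inside the DN3 E2A peak in 89.0% of the 4002 overlapping pairs, and the midpoints were a median of 91.5 bp apart. DN3 E2A peaks were the wider ones, with a median of 796 bp where met and 574 bp where not, against 299 bp for CD73+ HEB peaks on them and 163 bp for those off. A wider peak is more easily met. With midpoints within 200 bp as the rule instead, the share met was 24.8%. Peaks that were not met were seldom near misses: 332, or 3.73%, had a CD73+ HEB peak within 1000 bp.

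The score in one list went with the score in the other, with wide scatter. Spearman's rho between the DN3 E2A score and the highest CD73+ HEB score was 0.55 over the 3452 met peaks, which share the same 2 pooled libraries and their inputs. Among the DN3 E2A peaks at the tied value of 3100, those nearest Ndufaf6 and Rpusd4 also stood at 3100 for CD73+ HEB. The one nearest Btg2, an antiproliferative gene of resting lymphocytes, had 1550.43 (6838 bp from the gene), and the one nearest Nfix had 369.16. So peaks tied at 3100 in the DN3 E2A list, which the score does not rank among themselves, had CD73+ HEB scores far apart. The highest DN3 E2A score in the list, 3215.99 near Trim80, went with a CD73+ HEB score of 2382.25.

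**Figure D2:**
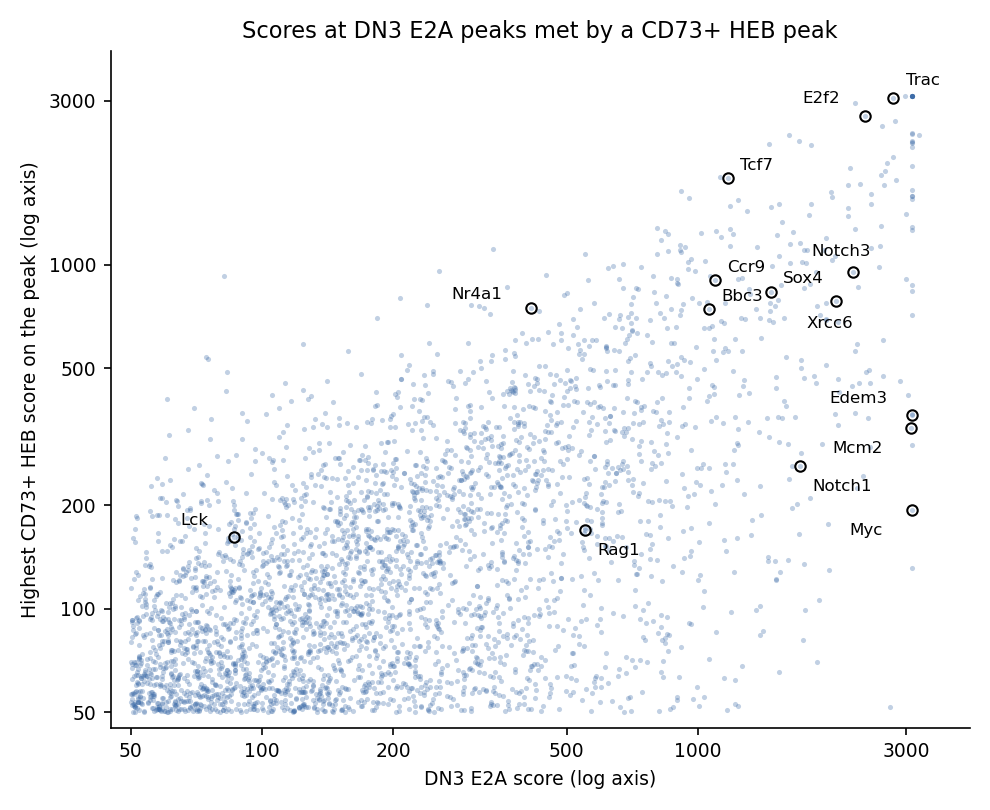
DN3 E2A score (horizontal, log axis) against the highest CD73+ HEB score (vertical, log axis) at each of the 3452 met peaks, with the highest DN3 E2A peak of some named genes circled. Trac and E2f2 lie at the top of both lists, while Myc, Notch1, Edem3 and Mcm2 pair a DN3 E2A score of 1713.58 or more with a CD73+ HEB score of at most 365.82.

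Met peaks were also the ones shared with the rest of the series, and this held at like score. Of DN3 E2A peaks that scored 100 to 200, 939 were met and 1719 were not, with median widths of 740 and 689 bp. The DN3 HEB list held 75.2% (72.3 to 77.8%) of the met and 56.1% (53.7 to 58.4%) of the others. The ratio of these shares was larger in the lists of transduced cells. The CD73- HEB list held 36.1% of the met peaks and 5.70% of the others, the CD73- E2A list 25.6% and 2.85%, and the CD73+ E2A list 19.3% and 1.22%. Hence most not-met DN3 E2A peaks of this score had an HEB peak in the same DN3 cells, and few had a peak of either antibody in transduced cells. At scores of 500 to 1000 the DN3 HEB list held 99.3% of 425 met and 98.8% of 83 not-met peaks, and the CD73- HEB list 76.0% and 33.7%.

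CD73+ HEB peaks off DN3 E2A sites were less often in other lists than those on them. At scores of 100 to 200, the DN3 HEB list held 78.6% of the 1021 on and 30.2% of the 298 off. The CD73- HEB list held 43.9% and 21.1%, and the CD73- E2A list 31.5% and 15.8%. The CD73+ E2A list held 19.7% and 17.8%, a difference within counting error. Over all scores, 77.1% of the off peaks were in none of the other 4 lists, against 64.4% of the not-met and 14.4% of the met DN3 E2A peaks.

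**Figure D3:**
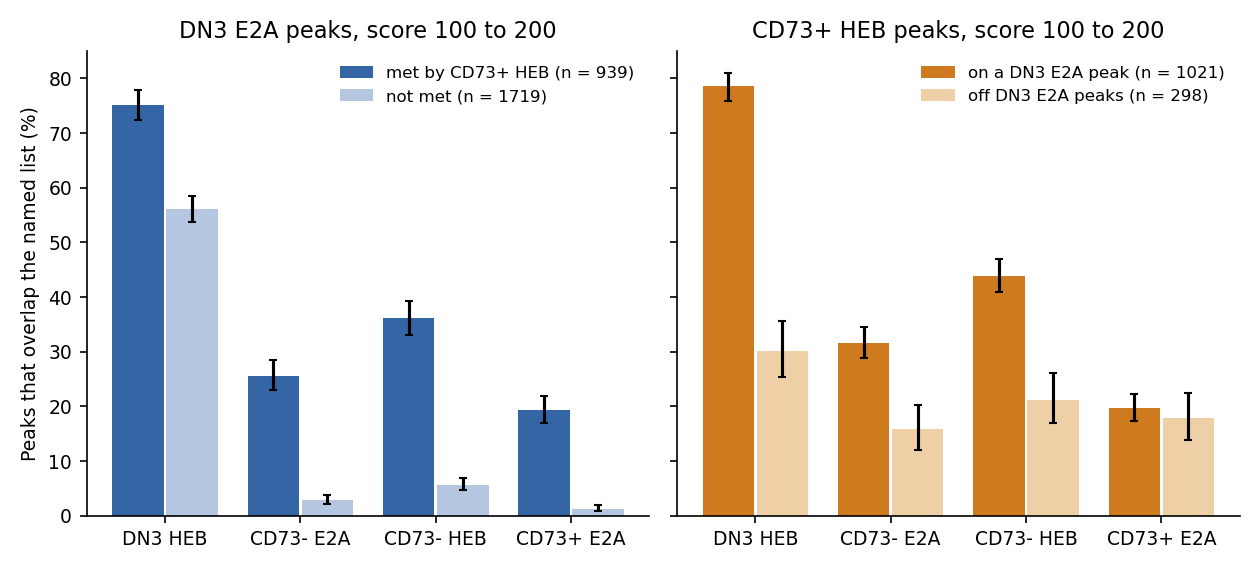
Share of peaks (percent, vertical) that overlap each of the 4 other lists, for DN3 E2A peaks met or not met by CD73+ HEB (left) and CD73+ HEB peaks on or off DN3 E2A sites (right), all at scores of 100 to 200, with 95% Wilson intervals. Not-met DN3 E2A peaks fall to 5.70% or less in the 3 lists of transduced cells but stand at 56.1% in the DN3 HEB list.

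Peaks were assigned to the nearest of 21907 protein-coding or receptor constant region genes. A met peak was nearest to 2395 genes (10.9%), a not-met peak to 5235 (23.9%) and an off CD73+ HEB peak to 3839 (17.5%). These are the background for the gene groups below. A gene often had several kinds at once: 1396 genes had met and not-met DN3 E2A peaks, and 594 had all 3 sets. Of 3584 genes with a single DN3 E2A peak, 24.1% had it met, while of 372 genes with 5 to 9 peaks 86.8% had at least 1 met. The share of peaks met rose less, from 24.1% to 31.2%. All 27 gene groups were described by how many members had a peak of each set, and long or isolated genes collect more peaks.

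**Figure D4:**
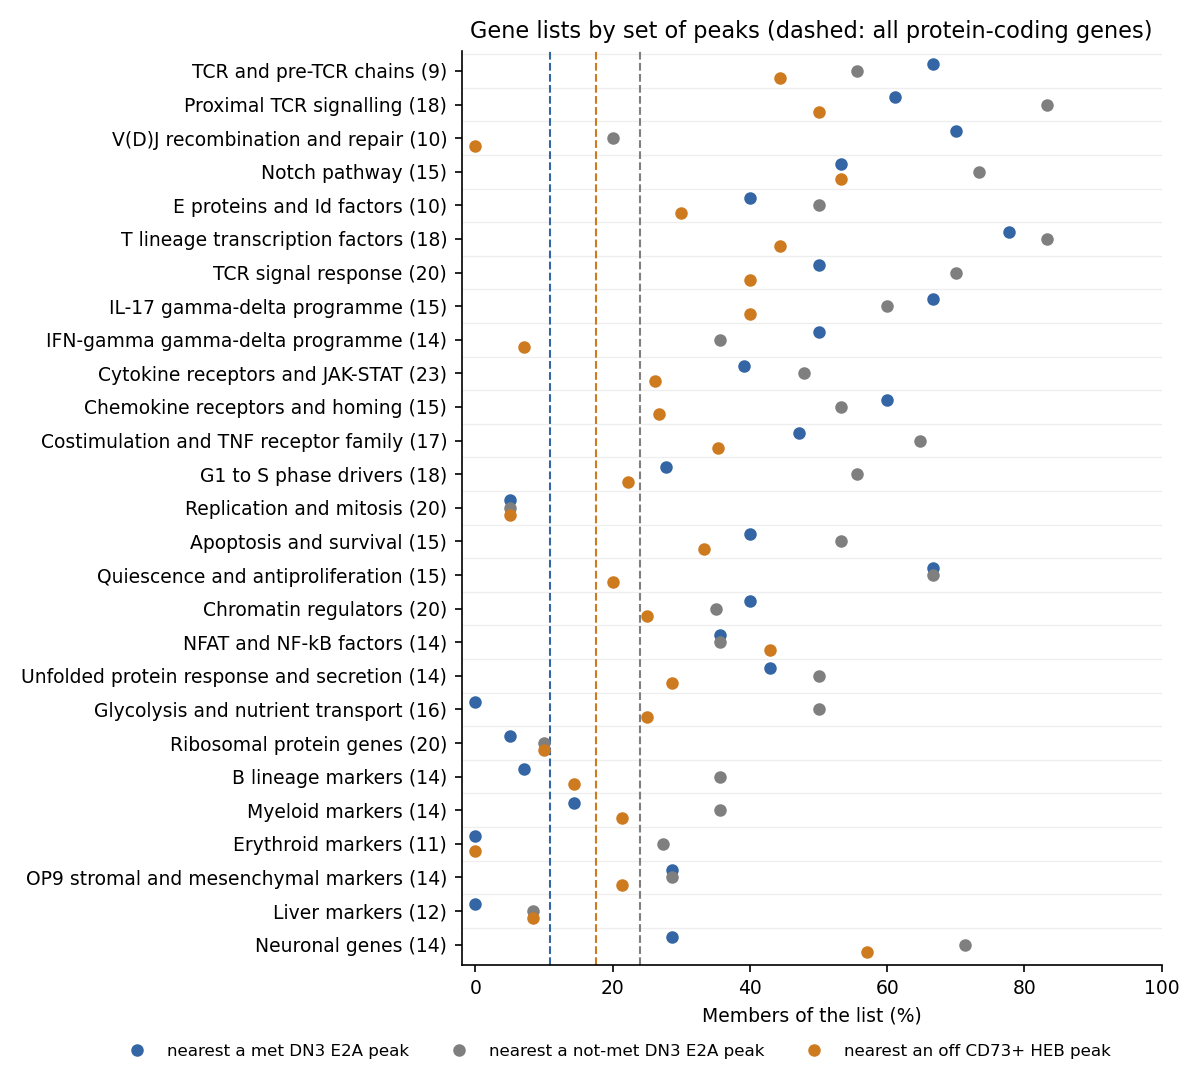
Members of each of 27 gene lists (percent, horizontal; number of genes in parentheses) that are the nearest gene of a met DN3 E2A peak, a not-met DN3 E2A peak or a CD73+ HEB peak off DN3 E2A sites, with the values over all protein-coding genes as dashed lines at 10.9%, 23.9% and 17.5%. Most lists stand to the right of all 3 lines. These include receptor chains, receptor signalling and T lineage transcription factors, but also stromal markers and neuronal genes. V(D)J recombination stands to the right for met members only, with no off member. The glycolysis, erythroid and liver lists have no met member.

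Genes that assemble antigen receptors had mostly met peaks. Of 10 genes of V(D)J recombination and DNA end joining, 7 had a met peak, 2 a not-met peak and none an off peak. Of their 12 DN3 E2A peaks 9 were met, 75.0% (46.8 to 91.1%), against 27.9% of all peaks. These peaks were strong, with a median score of 448, and 60.2% of all DN3 E2A peaks at 200 to 500 were met. Of the 9 peaks at 100 or more, 77.8% (45.3 to 93.7%) were met, against 51.3% of all such peaks, a value within the interval. Both Rag1 peaks were met, the stronger with a DN3 E2A score of 551.54 and a CD73+ HEB score of 169.48, 711 bp from the gene. Xrcc6, a subunit of the Ku end-binding protein, had 2072.18 and 783.46 within its span. Lig4, the ligase of end joining, had 732.45 and 344.97 within its span. These sites were strong in both lists. Dntt, which adds untemplated bases at the joins, had peaks of like DN3 E2A score that differed: 854.23 was met, with a CD73+ HEB score of 283.58, and 860.88 at 6355 bp was not. Rag2, Nhej1 and Xrcc5 were nearest to no peak. With the CD73+ list labelled E2A in place of HEB, 1 of the 10 genes had a met peak.

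Strong met sites lay by the alpha and a beta constant region. Of 9 genes of the T cell receptor and pre-receptor, 6 had a met, 5 a not-met and 4 an off peak, and 39.1% (26.4 to 53.5%) of 46 DN3 E2A peaks were met. The peak 2550 bp from Trac, the alpha constant region, scored 2803.78 for DN3 E2A and 3062.6 for CD73+ HEB. The peak 5756 bp from Trbc2, a beta constant region, scored 1038.63 and 1026.35. Cd3g had a met peak of 156.37 and 347.65 in its span. The neighbouring Cd3e had 3 peaks, none met, the highest 96.84 and 350.5 bp from a start site. Ptcra had 2 peaks, none met, of 111.68 and 76.91, both with a DN3 HEB peak. Trdc, the delta constant region, was the nearest gene of 11 met and 18 not-met peaks, the highest 581934 bp away (2599.87 and 986.83), because the variable segments of that locus are not among the genes used.

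Genes of the signalling chain below the receptor had met and not-met sites side by side. Of 18, 11 had a met peak, 15 a not-met peak and 9 an off peak, and 40.0% of their 65 DN3 E2A peaks were met. Lat, the membrane scaffold, had 626.66 for DN3 E2A and 347.37 for CD73+ HEB at 47 bp from a start site. Lck, the kinase that starts the signal, had 86.38 and 161.07 in its span. Lcp2, the cytosolic scaffold SLP-76, had 3 not-met peaks up to 203.62, and Ubash3a, a phosphatase that curbs signalling, had 2 up to 210.76. The coreceptor gene Cd4 had 2 not-met peaks up to 121.06, and Zap70 had 1 not-met peak of 99.86 and an off peak of 50.01.

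Notch genes held very strong met sites with many weak peaks around them. Of 15, 8 had a met, 11 a not-met and 8 an off peak. The Notch receptor gene Notch3 had a met peak of 2271.79 and 952.02 within its span and 2 not-met peaks of at most 100.33. Notch1 had 1713.58 and 259.86 at 9220 bp and 4 not-met peaks of at most 72.72. Maml3, a coactivator of Notch, had 2424.94 and 486.72 and 11 not-met peaks. Of 44 DN3 E2A peaks 25.0% (14.6 to 39.4%) were met, close to the 27.9% of all peaks. Hes1, a Notch target, had a met peak of 184.35 and 146.11 and 6 not-met peaks.

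The genes of the E proteins themselves differed. Tcf12, which encodes HEB, had 4 DN3 E2A peaks within its span and all 4 were met, at scores of 75.78 to 129.65, the highest with a CD73+ HEB score of 241.93. Tcf3, which encodes E2A, had 3 not-met peaks of 56.94 to 274.75. Id3 had 2 met peaks of 59.33 and 77.1, with 4 off CD73+ HEB peaks of up to 85.22, the highest 32946 bp away. Id2 was the nearest gene of 7 met and 13 not-met peaks, mostly distant: its highest, 3100 for DN3 E2A and 1267.08 for CD73+ HEB, lay 92620 bp away. In the whole list of 10 E protein and Id genes, 4 had a met, 5 a not-met and 3 an off peak.

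T lineage transcription factors all had a DN3 E2A peak but for Ikzf3. Of 18, 14 had a met, 15 a not-met and 8 an off peak, and 36.8% (27.8 to 46.9%) of 95 DN3 E2A peaks were met. Tcf7, which encodes TCF-1 and starts the T cell programme, had 4 peaks, all met, with DN3 E2A scores of 1170.31, 401.42, 300.34 and 157.13. The CD73+ HEB scores there were 1784.76, 135.75, 67.31 and 156.52, and the highest site lay 30192 bp from the gene. Bcl11b, the factor of T lineage commitment, had 2 met and 6 not-met peaks, the highest of which, 243.3 within the gene, was not met. Gata3 had a met pair of 546.6 and 605.74, but 262496 bp away. Zbtb7b, which encodes the CD4 lineage factor ThPOK, had 2 not-met peaks up to 543.58, and Satb1 had 6, all not met and at most 71.77. Gfi1 had a met peak of 1141.14 and 557.82 in its span beside the off peak at its start, which also overlapped a DN3 HEB peak. Ikzf3, which encodes Aiolos, had an off CD73+ HEB peak of 202.54 in its span.

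Genes that respond to receptor signals were met in part. Of 20, 10 had a met, 14 a not-met and 8 an off peak. Nr4a1, an immediate early gene of receptor signalling, had a met peak in its span with a DN3 E2A score of 413.75 and a CD73+ HEB score of 750.71. Egr1 and Egr3 were nearest to no peak, and Egr2 had a met peak of 153.33 and 54.19. Dusp2, a phosphatase of MAP kinases, had 386.22 and 135.96 at 7137 bp, 162.08 and 163.09 at 504 bp, and a not-met 240.12 in its span. Bcl6 had 5 not-met peaks, up to 571.81 at 84102 bp. Among 14 NFAT and NF-kB genes, 5 had a met, 5 a not-met and 6 an off peak. Of their 28 DN3 E2A peaks 21.4% (10.2 to 39.5%) were met, with the 27.9% of all peaks inside the interval.

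The genes of gamma-delta effector types were above the background in both DN3 E2A sets. Of 15 genes of the interleukin-17 type, 10 had a met, 9 a not-met and 6 an off peak. Sox4, a factor of that type, had 1467.04 and 836.46 at 5628 bp, and Blk, a kinase, 762.32 and 486.73 in its span. Sox13 had a met peak of 119.71 and 87.06, and Il17a, Il17f and Il1r1 were nearest to no peak. Of 14 genes of the interferon-gamma type, 7 had a met, 5 a not-met and 1 an off peak. Ifng had a met site of 469.2 and 181.73 at 23001 bp and a not-met peak of 118.62 in its span. Cd27 had 335.18 and 133.27 at 1265 bp. Zbtb16, which encodes PLZF, had 142.01 and 63.9. Nt5e encodes CD73, the marker of the sort. Its met pair, 250.76 and 314.3, lay 230739 bp away.

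Cytokine and homing receptors included several of the highest met sites. Socs3, a feedback inhibitor of cytokine signals, had 2687.81 and 1880.86 at 12858 bp. Selplg, the ligand of selectins that lets progenitors enter the thymus, had 2286.5 and 1268.63 in its span. Il6ra, a chain of the interleukin-6 receptor, had 3 peaks in its span, all met, the highest with 1125.99 and 1806.02. Ccr9, a homing receptor of thymus and gut, had met peaks of 1093.99 and 902.92 at 12214 bp and of 549.68 and 1078.82 at 9753 bp. At its start a peak of 73.38 was not met. Il7r, the survival receptor of early thymocytes, had 2 weak peaks, 64.59 and 56.95, neither met. Of 23 cytokine genes 9 had a met, 11 a not-met and 6 an off peak, and of 15 chemokine and homing genes 9, 8 and 4. Ccr7 had an off peak of 232.23 in its span, beside met peaks of 151.28 and 113.94.

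Genes of the step from G1 to S held strong met sites, and genes of replication and mitosis held few peaks of any set. Of 18 G1 to S genes, 5 had a met, 10 a not-met and 4 an off peak. Of their 40 DN3 E2A peaks 22.5% (12.3 to 37.5%) were met, with the 27.9% of all peaks inside the interval. Ccnd3, the D cyclin of thymocytes, had 3 met peaks within its span, with DN3 E2A scores of 2499.29, 1471.82 and 369.28 and CD73+ HEB scores of 1123.99, 1471.55 and 51.19. E2f2 had 2415.52 and 2721.23 in its span. Myc was the nearest gene of a site of 3100 and 193.49 that lay 221520 bp away. Ccnd1 and Ccnd2 had only not-met DN3 E2A peaks, at most 264.24 and 119.06. Of 20 genes of replication and mitosis, 1 had a met peak: Mcm2, a subunit of the replicative helicase, with 3086.53 and 336.53 in its span. One more had a not-met peak (Ccnb1, 71.33), and Pcna had an off peak of 70.07.

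Genes that keep lymphocytes at rest were often nearest to a met peak, and as often to a not-met one. Of 15 quiescence and antiproliferative genes, 10 had a met, 10 a not-met and 3 an off peak. The shares were 66.7%, 66.7% and 20.0%, against 10.9%, 23.9% and 17.5% of all genes. Of their 59 DN3 E2A peaks 39.0% (27.6 to 51.7%) were met, with the 27.9% of all peaks inside the interval. Of the 29 peaks at a score of 100 or more, 58.6% (40.7 to 74.5%) were met. The 51.3% of all such peaks lay within that interval. Klf13 had 1817.13 and 1504.17 at 59510 bp, Btg1 705.85 and 648.66 at 245305 bp, and Foxo1 383.85 and 191.37 at 45701 bp. Klf2, a factor of quiescence and exit from the thymus, had 139.18 and 58.69 at 27541 bp and 61.45 and 236.45 at 57 bp. Of 15 genes of apoptosis and survival, 6 had a met, 8 a not-met and 5 an off peak. Bbc3, which encodes the killer PUMA, had 1061.95 and 744.0 at 152.5 bp from a start site, and Bcl2l1, which encodes the survival protein Bcl-xL, had 808.03 and 487.8 in its span.

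Costimulatory, chromatin and protein folding genes mixed the sets. Of 17 costimulatory and TNF receptor genes, 8 had a met, 11 a not-met and 6 an off peak. Cd28, the main costimulatory receptor of T cells, had met and not-met peaks, the highest met one with 250.64 for DN3 E2A. Pdcd1, which encodes the inhibitory receptor PD-1, had a single DN3 E2A peak, met, of 112.01 and 270.67. Of 20 chromatin regulators, 8 had a met, 7 a not-met and 5 an off peak. Chd7, a chromatin remodeller, had 1776.38 and 1105.67 in its span, while Smarca4, the motor of the SWI/SNF complex, had a not-met peak of 900.12 in its span beside a met one of 580.41 and 59.08. Of 14 genes of the unfolded protein response and secretion, 6 had a met, 7 a not-met and 4 an off peak. Edem3, which acts in the disposal of misfolded proteins, had a DN3 E2A score of 3100 in its span with 5 CD73+ HEB peaks under it, the highest of 365.82. Ern1, the sensor IRE1, had 3 peaks, all met, the highest with 474.01 and 231.19 at 3374 bp. Xbp1, which IRE1 activates by splicing, had 2 not-met peaks.

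Genes of glycolysis and nutrient transport had no met peak, and neither had the erythroid and liver markers. None of 16 members had a met peak, against 10.9% of all genes, while 8 had a not-met and 4 an off peak. Of their 14 DN3 E2A peaks 0 were met, with an upper Wilson bound of 21.5%, below the 27.9% of all peaks. Their median DN3 E2A score was 62.4, and of all DN3 E2A peaks at 60 to 80 13.3% were met, a value below that bound. Slc2a1, the glucose transporter GLUT1, had not-met peaks of 307.77, 101.47 and 60.23, and Slc7a5, an amino acid transporter, 182.07 and 51.98. The count of members with a met peak was also 0 with every gene within 10 kb counted. It was 0 with the CD73+ list labelled E2A too, but that list met far fewer DN3 E2A peaks of any kind. Of 20 ribosomal protein genes, 1 had a met peak.

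The highest DN3 E2A sites without a CD73+ HEB peak were in most cases HEB sites in DN3 cells. The peak nearest Xbp1, a factor of the unfolded protein response, scored 1913.39 at 18918 bp, and the next lay near Col19a1 (1728.18, 5525 bp wide) and Tshz2 (1710.94). Those of Tmprss4 (1520.99), Fndc3b (1422.02), Acoxl (1396.3), Mad1l1 (1205.77), Coro2a (1185.26) and Mtch1 (1184.55) lay in the gene. Gtsf1l, at 13096 bp, had 1185.14. All but that of Col19a1 overlapped a DN3 HEB peak. The Acoxl peak missed the nearest CD73+ HEB peak by 84 bp, while the gap was 7567 bp or more for the other 9. Of genes with at least 5 DN3 E2A peaks, 51 had none met. These were 49 of 372 genes with 5 to 9 peaks and 2 of 62 with 10 or more. They included Tbc1d22a with 11, Prkce with 10 up to 426.43, Elmo1 with 7 up to 628.06, and Bcl11a with 6 up to 163.24. Conversely 22 genes with 3 or more peaks had all of them met, Sla2, Il6ra, Tcf7 and Tcf12 among them. These were 21 of 894 genes with 3 or 4 peaks and 1 of 372 with 5 to 9.

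The CD73+ HEB peaks off DN3 E2A sites were for the most part weak, and the weak ones lay in genes less often than those on DN3 E2A sites. Only 364 of the 6201, or 5.87%, scored 100 or more, against 52.4% of those on DN3 E2A sites. Of the off peaks 34.2% lay in a gene and 25.5% more than 100 kb from one, against 48.1% and 12.5% of the on peaks. Below a score of 100, 33.0% of the off and 47.2% of the on peaks lay in a gene. At 100 or more the difference was not seen: 53.6% of the off and 48.9% of the on peaks lay in a gene. More than 100 kb from a gene lay 11.8% and 12.6%. Off peaks of any score made up 81.8% of the CD73+ HEB peaks on chromosome X, 51.9% on chromosome 8 and 49.8% on chromosome 19. Among 14 neuronal genes, a group taken from outside the T lineage, 8 had an off peak, 10 a not-met and 4 a met peak. The shares were 57.1%, 71.4% and 28.6%, each above the 17.5%, 23.9% and 10.9% of all genes. Off peaks of the neuronal genes scored at most 70.93. These genes are long, and the part of length was not tested. Of 1918 genes with an off peak and no DN3 E2A peak, 133 had 3 or more off peaks. Ptprd had the most, with 9 up to 109.33.

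Strong off peaks lay at start sites more often. Of those at 100 or more, 25.0% (20.8 to 29.7%, 91 of 364) had the midpoint within 1000 bp of a start site, against 9.74% of strong CD73+ HEB peaks on DN3 E2A sites and 6.14% of strong not-met DN3 E2A peaks. At any distance, the highest off peaks were those of Gm40363 (492.5), Icos (489.63 at 16245 bp), Tmem87b (471.36), Cdc37 (441.55), Glb1 (377.23) and H2bc14 (342.93). Icos encodes a costimulatory receptor, and its site had no DN3 HEB peak but a CD73- E2A peak. Tmem87b, at 16.5 bp from a start, and Cdc37, the kinase partner of HSP90, at 202.5 bp, had peaks in the DN3 HEB list and in both CD73- lists. So an off peak is off the DN3 E2A list and not always off E protein sites of DN3 cells.

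Histone genes formed a large share of these start sites. Of the 91 strong off peaks near a start, 24 were nearest to a replication-dependent histone gene, a group chosen after its values were seen. These genes lie in clusters, on chromosome 13 with 54 of the 66 used here and on chromosome 3 with 10, and supply histones for new chromatin in S phase. A met peak was nearest to 6 of the 66, a not-met peak to 1 and an off CD73+ HEB peak to 43, or 65.2%, against 17.5% of all genes. The 51 off peaks there scored 51.49 to 342.93, with a median of 92.3, and 45 of them touched the gene itself. Without histone genes, 19.7% of 340 strong off peaks lay near a start.

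Of the 24 strong off peaks at histone genes, 2 overlapped a DN3 HEB, 3 a CD73- E2A, 8 a CD73- HEB and 6 a CD73+ E2A peak, and 11 overlapped none of the 4. Over all strong off peaks, 48.4% overlapped none. Counted by promoter window, 250 bases before to 50 after the start, the CD73+ HEB list held 25 of 62 histone promoters, 40.3% (29.0 to 52.7%), and 1.83% of all promoters. The other 5 lists also held a larger share of histone promoters than of all promoters, from few windows. The DN3 E2A list held 6.45% against 2.34%, and the DN3 HEB list 9.68% against 2.63%. The CD73- E2A list held 3.23% against 0.363%, the CD73- HEB list 6.45% against 0.541%, and the CD73+ E2A list 1.61% against 0.250%. With peaks of 100 or more, the CD73+ HEB list held 37.1% (26.2 to 49.5%), against 0.81% of all promoters. Each of the other 5 lists held 0 of 62, with an upper bound of 5.83%. Of all promoters they held 0.97% or less at that score, so a count of 0 is not below their background. Where an off peak reached such a window, its midpoint was 486 bp before to 300 bp after the start, and in 3 of 20 windows it covered at least 200 of the 250 bases before the start. Neighbouring histone genes share peaks, as H2ac11 and H2bc11 do. CCAAT, searched on both strands, was in 87.1% of the histone windows and 38.2% of all. CAGCTG was in 2 of the 18 histone windows with a strong off peak, 11.1% (3.1 to 32.8%), and in 11.3% of all 62. Of the 55 windows of other genes with a strong off peak 30.9% held it, a value within that interval. CANNTG was in 77.8% of the 18 and 83.6% of the 55. Histone genes are many near-identical copies, and how reads that fit several copies were placed is not given in the sources used here.

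**Figure D5:**
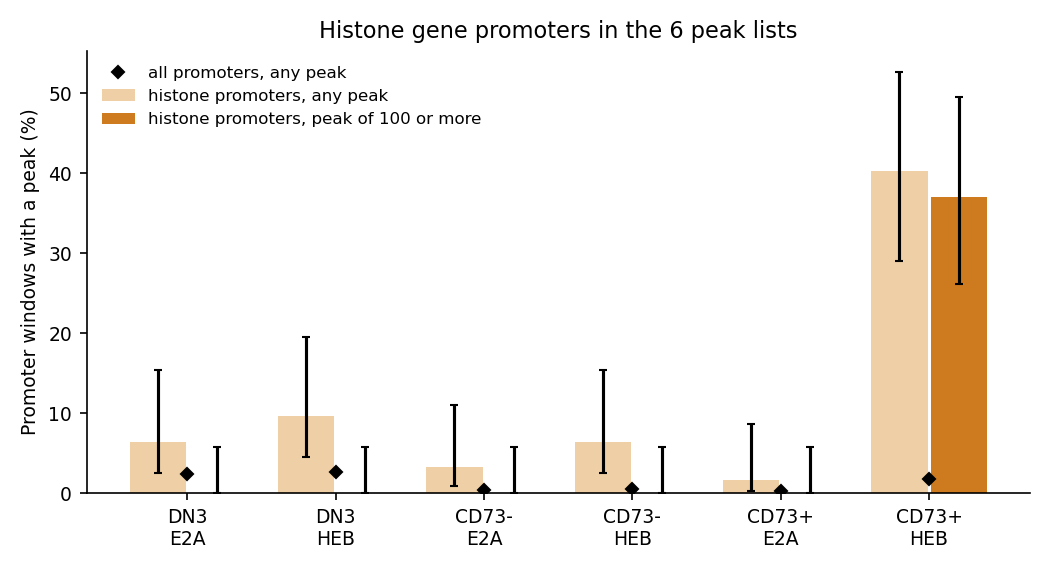
Share of 62 histone promoter windows (percent, vertical) with a peak in each of the 6 lists, for all peaks and for peaks of 100 or more, with 95% Wilson intervals, beside the share of all 21238 promoters (diamonds). The CD73+ HEB list stands at 40.3% and 37.1%, the other 5 at 9.68% or less and at 0. The diamonds count peaks of any score. With peaks of 100 or more, the other 5 lists held 0.97% or less of all promoters.

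Genes of other blood lineages and of liver were near the background or below it in the met set. Of 14 B lineage markers 1 had a met, 5 a not-met and 2 an off peak. Of 14 myeloid markers the counts were 2, 5 and 3, of 11 erythroid markers 0, 3 and 0, and of 12 liver markers 0, 1 and 1. No peak was nearest to 7 of the B lineage, 7 of the myeloid, 8 of the erythroid and 10 of the liver markers. Csf1r, Gata1 and Alb were among these. Other myeloid markers did have peaks. Spi1, Cebpa and Mpo each had a not-met peak, of 56.34, 59.42 and 87.97. Cebpb had a met peak of 625.66 and 160.68 and 4 not-met peaks. Itgam, a myeloid integrin gene, had a met peak of 1184.45 and 1134.41 at 3275 bp. Of 14 stromal markers 4 had a met peak, 28.6% against 10.9% of all genes. Of their 11 DN3 E2A peaks 6 were met, 54.5% (28.0 to 78.7%). One of the 4 genes is Thy1, also the T lineage marker of the sort. It had 576.47 and 60.97 in its span and 318.28 and 209.57 at 29995 bp. A not-met peak was nearest to 35.7% of B lineage and of myeloid markers, against 23.9% of all genes. Peaks do not measure expression, so these counts do not show which cells were present.

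Clusters of closely spaced peaks weighed on the totals. The genes nearest to the most met peaks were Gm15319 with 26 met and 26 off, Zfp386 with 23 met and 9 off, and 9530057J20Rik with 21 met and 26 off, and Gm15319 and 9530057J20Rik lie on chromosome 8, where 38.1% of DN3 E2A peaks were met. Across chromosomes that share ran down to 20.1%, on chromosome X. Leaving out the 252 genes with 10 or more peaks of the lists, 25.5% of DN3 E2A peaks were met and 65.1% of CD73+ HEB peaks were off.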

How the data were processed

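ChIP-seq peak lists of 6 antibody libraries were used, and the 3 inputs only through the authors' calls. Reads were processed with Bowtie, HOMER and MACS 1.4.2 on mm10, per the submitters' processing notes, and duplicates were concatenated, per the labels' protocols. The deposited score is 10 times the negative log10 of each peak's p-value, with many ties at 3100. Other parameters and read depths are not given in the sources used here, so precision could be given only as 95% Wilson intervals of shares of peaks. Only autosomes, X and Y were used, and no artefact-prone regions were masked here. Peaks were intersected (1 bp), assigned to the nearest RefSeq gene span (GRCm38.p6) and set against 32851 start sites (chromosome 18 starts were not analysed here), in Python 3.11.15 with pandas 2.3.3 and numpy 2.4.6. The code was tested on simulated peaks. Of 409 list symbols 407 matched. Named genes were the 10 highest peaks per set within 100 kb, up to 3 per list and set, the 5 genes with most peaks, and 30 fixed genes. Others, the histone genes among them, were chosen after their values were seen. Members and lists were chosen with earlier results of these data known. Some named genes are not reported here.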

Additional observations from a re-analysis of the deposited data

How the results depend on the processing

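The share of DN3 E2A peaks met (27.9%) and of CD73+ HEB peaks off (60.8%) moved with the score and the overlap required. They were 34.5% and 26.2% with both lists at 100 or more, 51.3% and 70.6% with only DN3 E2A at 100 or more, 16.2% and 14.8% with only CD73+ HEB so, and 44.4% and 50.8% with the 5000 highest of each. Overlap of 50% of both peaks gave 8.36% and 89.9%, midpoints within 200 bp 24.8% and 69.0%, and widening by 500 bp 29.3% and 59.3%. Without peaks over 3000 bp, 63.0% were off. The CD73+ list labelled E2A gave 9.27% and 94.2%. Chosen after seeing the data, both lists at 200 or more gave 36.5% and 23.3%, leaving out genes with 10 or more peaks 25.5% and 65.1%, and the DN3 HEB list 64.8% off.

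Genes nearest a met, a not-met and an off peak (10.9%, 23.9% and 17.5%) were 6.30%, 10.5% and 2.52% with both lists at 100 or more, 4.38%, 26.8% and 31.3% with the CD73+ list labelled E2A, 9.97%, 21.1% and 12.7% counting every gene within 10 kb, and 9.59%, 21.1% and 14.0% within 50 kb. No paired analysis was possible because each group is 1 pooled list. Depth is unknown, so a site outside a list may be bound below the threshold. Of 81 counts over gene lists, 45 moved with both lists at 100 or more, 35 with the CD73+ list labelled E2A and 22 with every gene within 10 kb.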
